A study of Oryza sativa with 6 samples.

Results

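The ABC and MATE transporter families were followed in leaves of 4-week-old rice of 3 genotypes. Members were the transcripts whose deposited description names an ABC transporter, an ABC-2 type or ABC transporter-like domain, a multi antimicrobial extrusion protein, or a MATE efflux or MATE family protein. The rule found 38 transcripts of 36 genes among the 7194 transcripts of 6535 genes in the deposited table. Of these, 24 transcripts (22 genes) were ABC and 14 transcripts (14 genes) were MATE. By description the ABC transcripts split into 3 of the pleiotropic drug resistance (PDR) type, 2 of the white-brown complex type, 2 MDR-like, 3 MRP-like, 1 mitochondrial half-transporter and 13 with no class given. A transcript ID carries its gene's ID with t in place of g, so Os03t0229500-00 belongs to gene Os03g0229500.

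ABC transporters are membrane proteins that use ATP to move substrates across a membrane. In plants the ABCG subfamily, which holds the white-brown complex half-size and the PDR full-size proteins, is known for the export of cuticle lipids, hormones and defence compounds. The ABCB (MDR-like) subfamily is known for auxin transport and the ABCC (MRP-like) subfamily for loading glutathione conjugates and other conjugates into the vacuole. MATE proteins are antiporters that exchange protons or sodium for organic substrates such as citrate, flavonoids, alkaloids and hormones.

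Messenger RNA was sequenced from 6 libraries, 2 of each genotype. WT denotes nontransgenic rice, OX denotes transgenic rice overexpressing Osa-MIR171f, whose product is a microRNA of the miR171 family, and KO denotes knockout mutants of the same gene. OX 1 and OX 2 came from the transgenic lines numbered 3 and 5, and both KO libraries carry line number 2, so OX spans separate lines and KO 1 line. The transgene's promoter, the cultivar and the edited sequence are not given in these sources, and the precursor of MIR171f was not analysed here. For WT and for KO, the labels leave unstated whether both libraries are from separate plants. P-values therefore measure the spread among these libraries only, and that spread may be technical.

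The table is the authors' selection: of 27384 transcripts they tested, it keeps those with a change of 2-fold or more and an unadjusted p under 0.05 in any of their 3 comparisons. Listed transcripts held 7376228 to 9739821 estimated reads per library, and the authors' effective library totals were 23869522 to 34214364. Levels are given as CPM, counts scaled to the effective total, and levels are compared between genes only in the authors' FPKM, which is scaled to transcript length. A transcript is called when edgeR's quasi-likelihood test, fitted to the whole table, gave an adjusted p below 0.05. With 2 libraries per group a called transcript seldom overlaps between groups, so statements on overlap below are description only. The share of all listed transcripts without overlap is not given here. The 38 listed leaf photosynthesis transcripts (chlorophyll-binding, photosystem and Rubisco small subunit) were abundant in every library and summed to 112460 and 119660 CPM in WT, 45057 and 48351 CPM in OX, and 73559 and 72477 CPM in KO. Of these 38, 32 fell in OX and 29 fell in KO, where 19.0% and 11.0% of all tested transcripts were called lower. In bulk leaves, fewer cells of a type and less RNA per cell cannot be told apart.

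The selection was met by 24 of the 38 members when OX was set against WT, by 17 when KO was, and by 23 between the mutants. Over all 7194 listed transcripts it was met by 4306, 3532 and 3795, in the same order. It was met by 2 members in all 3 comparisons, and the share of all listed transcripts that did so is not given here.

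Across both families more transcripts rose than fell in each mutant against WT, as in the whole table, and the balance turned in KO with DESeq2 size factors or TMM factors. Of the 37 members tested, 13 rose and 7 fell in OX against WT, where 44.1% of all tested transcripts were called in either direction, 25.0% higher and 19.0% lower. In KO against WT 12 rose and 3 fell, against 36.0% called in all, 25.0% higher and 11.0% lower. In OX against KO 8 were higher and 12 lower in OX, against 38.3% called in all, 13.3% higher and 25.0% lower. The 23 tested ABC transcripts had 7 higher and 4 lower calls when OX was set against WT, 9 and 2 when KO was, and 3 and 6 in OX against KO. The ABC split in KO became 5 and 5 with DESeq2 size factors, 4 and 5 with TMM factors, and 5 and 1 without KO 1 or KO 2. The OX split became 11 and 2 with plain library totals, and without OX 1 it had 6 higher and 2 lower. Between the mutants the ABC split became 4 and 5 with DESeq2 size factors and 6 and 5 with TMM factors, and without OX 2 it had 2 higher and 3 lower. The first 2 comparisons share the WT libraries, and their values are given side by side below. The median log2 fold change over tested members was 0.87 in OX against WT and 0.44 in KO against WT, beside medians of 0.28 and 0.43 over all 7034 tested transcripts. In OX against KO the median was -0.32 beside -0.41.

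The balance of higher and lower calls depends on library scaling. The splits for OX against WT were 11 higher and 8 lower with DESeq2 size factors, 10 and 9 with TMM factors, and 19 and 4 with plain library totals. In KO against WT they were 6 and 8, 5 and 8, and 13 and 2, so the balance turned with both factors computed on the listed transcripts. The KO median over members also turned sign there, to -0.07 and -0.13. In OX against KO they were 10 and 10, 11 and 10, and 9 and 11. These scalings moved the median of all tested transcripts too, in OX against WT to 0.10, 0.09 and 0.67, in KO against WT to -0.06, -0.13 and 0.63, and in OX against KO to -0.09, -0.04 and -0.23. Leaving out OX 1 or OX 2 reduced the 13 higher calls in OX against WT to 6 in either case, and the 7 lower calls became 4 without OX 1. Leaving out KO 1 or KO 2 left 6 of the 12 higher calls and 1 of the 3 lower calls in KO against WT. In OX against KO, 5, 4, 4 and 3 higher and 7, 6, 6 and 7 lower calls were made without OX 1, OX 2, KO 1 and KO 2.

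**Figure D1:**
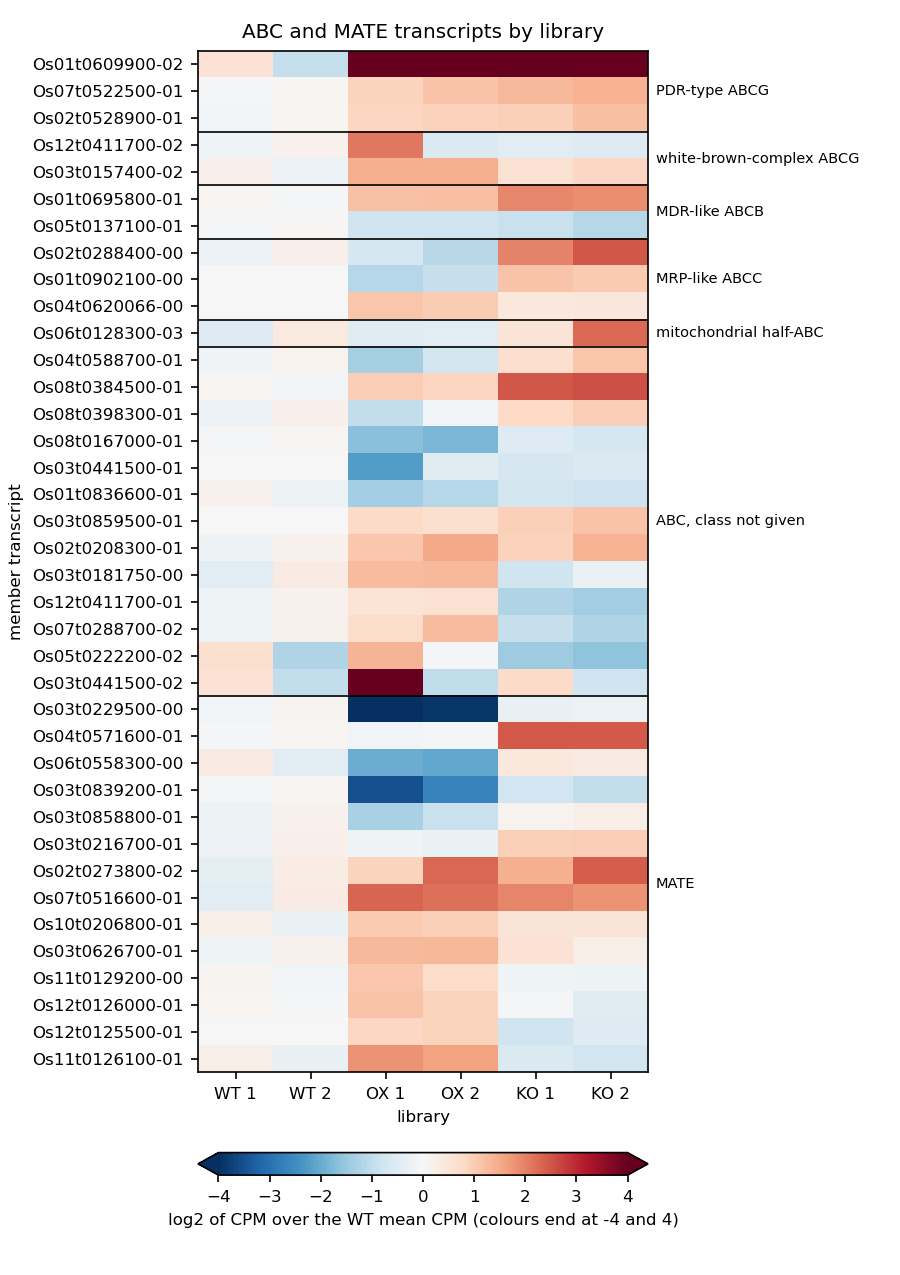
Each row is 1 of the 38 member transcripts, grouped by family, and each column 1 library; colour gives log2 of the CPM over the mean WT CPM. The row of Os03t0229500-00 is the deepest blue in both OX libraries, the row of Os04t0571600-01 is red in both KO libraries only, and Os03t0441500-02 is high in OX 1 alone.

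The summed level of the 38 members was 425 and 416 CPM in WT, 587 and 586 CPM in OX, and 720 and 754 CPM in KO. The groups did not overlap on the authors' effective totals. Every CPM sum given here rests on those totals, and sums under the other scalings were not made. The order of OX and KO may therefore depend on the scaling. CPM is not scaled to transcript length, so long transcripts weigh more in a sum. The 14 MATE transcripts made up 140 and 146 CPM of this in WT, 160 and 162 CPM in OX, and 302 and 306 CPM in KO. Most of the MATE surplus in KO lay in 1 transcript, Os04t0571600-01: the other MATE transcripts summed to 108 and 110 CPM in WT, 128 and 130 CPM in OX, and 118 and 123 CPM in KO.

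By mean FPKM over the 6 libraries the most abundant member was Os04t0620066-00 at 53.7, followed by Os04t0571600-01 at 35.1, Os01t0695800-01 at 19.2, Os08t0384500-01 at 16.4, Os03t0441500-01 at 15.7 and Os10t0206800-01 at 15.0. The order changed with genotype. Os04t0620066-00 led in WT (30.6 FPKM) and OX (82.7 FPKM), and Os04t0571600-01 led in KO (77.5 FPKM, against 12.4 in WT). The least abundant member, Os03t0181750-00, averaged 0.114 FPKM.

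All 3 PDR-type ABCG transcripts rose in both OX and KO against WT, where 25.0% of all tested transcripts were called higher in each. PDR proteins are full-size ABCG transporters, found in plants and fungi. The listed transcripts are 4445 (Os01t0609900-02), 3801 (Os02t0528900-01) and 1686 (Os07t0522500-01) bases long, and whether each encodes a full-size protein was not tested. Os01t0609900-02, described as similar to PDR4 (chromosome 1, 24107086 to 24114978, IRGSP-1.0), had 0.852 and 0.293 CPM in WT, 11.8 and 13.0 CPM in OX, and 16.2 and 18.7 CPM in KO. WT was near the detection limit, with 22 and 7 reads, and no WT library reached either mutant. Its log2 fold change was 4.41 ± 0.44 (SE, adjusted p = 0.00327) in OX and 4.91 ± 0.45 (adjusted p = 0.0027) in KO, the largest rises among the members called.

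Os07t0522500-01, similar to PDR6 (chromosome 7, 20214297 to 20218689), had 13.1 and 14.6 CPM in WT, 26.0 and 30.5 CPM in OX, and 34.0 and 36.6 CPM in KO. The 3 groups did not overlap, and the log2 fold changes were 1.03 ± 0.12 in OX (adjusted p = 0.0046) and 1.35 ± 0.12 in KO (adjusted p = 0.00195). Os02t0528900-01, the remaining PDR-like transcript, had 4.26 and 4.86 CPM in WT, 8.32 and 8.62 CPM in OX, and 8.82 and 10.6 CPM in KO. It rose by 0.89 ± 0.17 in OX (adjusted p = 0.0272) and 1.09 ± 0.17 in KO (adjusted p = 0.0155) on the log2 scale. Both of its calls ended with DESeq2 size factors (adjusted p = 0.0578 and 0.124) and with TMM factors (0.0576 and 0.167). The OX call also ended without WT 1 (0.121), WT 2 (0.0739), OX 1 (0.117), OX 2 (0.137) or KO 2 (0.0522), and the KO call without WT 1 (0.0796), WT 2 (0.0535) or KO 2 (0.0999). Over all alternatives its adjusted p ran from 0.0016 to 0.137 in OX and from 5.92e-05 to 0.167 in KO. None of the 3 PDR-type transcripts was called between OX and KO, where the log2 fold changes ran from -0.49 to -0.20.

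Os03t0157400-02, of the white-brown complex type (chromosome 3, 3076026 to 3083674), had 51.3 and 37.8 CPM in WT, 122 and 123 CPM in OX, and 68.1 and 79.9 CPM in KO. OX lay above all other libraries, and the rise against WT was 1.46 ± 0.17 on the log2 scale (adjusted p = 0.00515). In KO against WT the log2 fold change was 0.73 ± 0.16 and did not pass (adjusted p = 0.0645). OX against KO, also at 0.73 ± 0.16, did not pass either (adjusted p = 0.0618). In the authors' deposited annotation this transcript is the 1 listed transcript with the term transpiration, and it is 1 of 39 with response to water deprivation.

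Os08t0167000-01 has no class in its deposited description. Its gene ID is taken here, from general knowledge and not from the files, to be that of OsABCG18, a half-size transporter that moves cytokinin from root to shoot in rice. It lies on chromosome 8 from 3928463 to 3933577. It had 14.7 and 16.5 CPM in WT, 4.91 and 4.41 CPM in OX, and 10.9 and 9.58 CPM in KO. Each OX library was below every other library. The fall in OX was -1.74 ± 0.15 on the log2 scale (adjusted p = 0.00148), and in KO the value of -0.60 ± 0.15 did not pass (adjusted p = 0.0744). Directly compared, OX was below KO by -1.14 ± 0.15 (adjusted p = 0.008), a call that ended without OX 2 (adjusted p = 0.0621) or KO 1 (0.0581) and ran from 1.09e-06 to 0.0621 over all alternatives.

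The 3 MRP-like (ABCC) transcripts all rose in KO against WT, where 25.0% of all tested transcripts were called higher. With TMM factors the KO calls of all 3 ended, and with DESeq2 size factors those of Os02t0288400-00 and Os04t0620066-00 ended. The KO value of Os04t0620066-00 also turned sign with either. In OX against WT 1 rose, 1 fell and 1 was not called. Os01t0902100-00 (chromosome 1, 39276426 to 39281147) had 9.76 and 9.72 CPM in WT, 4.44 and 5.09 CPM in OX, and 21.7 and 20.3 CPM in KO. WT lay between the mutants, with no overlap. It fell by 1.03 ± 0.13 on the log2 scale in OX (adjusted p = 0.0057) and rose by 1.11 ± 0.13 in KO (adjusted p = 0.00481). OX was lower than KO by -2.14 ± 0.13 (adjusted p = 0.000556). The KO call ended with TMM factors (adjusted p = 0.0654) and without KO 1 (0.0507), within a range of 4.07e-09 to 0.0654 over all alternatives.

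Os02t0288400-00 was a low transcript with 0.426 and 0.587 CPM in WT, 0.315 and 0.234 CPM in OX, and 1.99 and 2.85 CPM in KO. The KO libraries stood apart from the others. The log2 fold change was 2.25 ± 0.38 in KO against WT (adjusted p = 0.0203) and -3.13 ± 0.39 in OX against KO (adjusted p = 0.00694). The KO call ended with DESeq2 size factors (adjusted p = 0.0513) and TMM factors (0.0563), and without WT 1 (0.116), WT 2 (0.0744), KO 1 (0.0508) or KO 2 (0.107), within a range of 0.00345 to 0.116. The call against KO ended without OX 2 (adjusted p = 0.0626, range 2.04e-05 to 0.0626).

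Os04t0620066-00, described as a fragment of an MRP-like transporter (chromosome 4, 31505399 to 31506769), had 49.1 and 47.8 CPM in WT, 104 and 99.0 CPM in OX, and 65.0 and 66.7 CPM in KO. The libraries of each genotype were close together and the groups did not overlap. It rose by 1.06 ± 0.06 in OX (adjusted p = 0.000325), by less in KO (0.44 ± 0.06, adjusted p = 0.00794), and was higher in OX than in KO by 0.62 ± 0.06 (adjusted p = 0.00213), all on the log2 scale. Its KO rise turned to -0.051 with DESeq2 size factors and -0.12 with TMM factors (adjusted p = 1 and 0.872), and the call ended without KO 1 (0.0568) or KO 2 (0.0731), within a range of 6.42e-07 to 1.

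The 2 MDR-like (ABCB) transcripts moved in opposite directions from each other in both mutants. They are 889 (Os01t0695800-01) and 1565 (Os05t0137100-01) bases long, and whether either encodes a whole transporter was not tested. Os01t0695800-01 (chromosome 1, 28786544 to 28787701) had 8.29 and 7.37 CPM in WT, 17.5 and 17.9 CPM in OX, and 29.6 and 28.7 CPM in KO. It was lowest in WT and highest in KO, and the log2 rises were 1.18 ± 0.11 (adjusted p = 0.00176) in OX and 1.89 ± 0.11 (adjusted p = 0.00041) in KO. The difference of OX from KO, -0.72 ± 0.10 (adjusted p = 0.0117), ended with DESeq2 size factors (0.109) and TMM factors (0.219), and without OX 1 (0.0843), OX 2 (0.0761), KO 1 (0.0924) or KO 2 (0.0765), within a range of 1.91e-06 to 0.219.

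Os05t0137100-01 (chromosome 5, 2165243 to 2166893) had 24.2 and 26.3 CPM in WT, 14.5 and 14.4 CPM in OX, and 13.8 and 11.4 CPM in KO. Both mutants were below WT. It fell by 1.00 ± 0.13 in KO (adjusted p = 0.00745) and by 0.81 ± 0.13 in OX (adjusted p = 0.0141) on the log2 scale. The OX call ended with plain library totals (adjusted p = 0.116) and without WT 2 (0.0688), OX 1 (0.0853) or OX 2 (0.089), within a range of 1.92e-05 to 0.116. This transcript overlaps a listed transcript of another gene, Os05t0137000-01, which encodes a chorismate synthase, an enzyme of aromatic amino acid synthesis. Whether reads were counted by strand is not given in the sources used here, so its value is uncertain.

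Among the 13 ABC transcripts with no class in their description, 1 rose and 2 fell in OX, and 2 rose and 1 fell in KO. In each mutant 23.1% were called, beside 44.1% of all tested transcripts in OX and 36.0% in KO. The 10 not called in OX ran from -1.11 to 4.15 and the 10 not called in KO from -1.51 to 1.18 on the log2 scale. Os08t0384500-01 (chromosome 8, 18128558 to 18132719) had 16.5 and 14.5 CPM in WT, 30.9 and 28.3 CPM in OX, and 85.9 and 92.8 CPM in KO. The groups did not overlap, and KO was highest. It rose by 2.53 ± 0.10 on the log2 scale in KO (adjusted p = 0.000151), by 0.93 ± 0.10 in OX (adjusted p = 0.00321), and was lower in OX than in KO by -1.59 ± 0.10 (adjusted p = 0.000596).

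Os12t0411700-01 (chromosome 12, 12568930 to 12587004) had 7.09 and 8.92 CPM in WT, 11.8 and 12.1 CPM in OX, and 3.49 and 3.03 CPM in KO. OX was highest and KO lowest. It was higher in OX than in KO by 1.87 ± 0.18 on the log2 scale (adjusted p = 0.00271) and fell in KO against WT by 1.29 ± 0.18 (adjusted p = 0.0107), a call that ended without KO 1 (0.0556) or KO 2 (0.0817) and ran from 7.16e-06 to 0.0817 over all alternatives. In OX against WT its value of 0.58 ± 0.18 did not pass (adjusted p = 0.135). The gene's other listed transcript, Os12t0411700-02, is described as of the white-brown complex type.

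The remaining calls of this class were fewer and less stable. Os01t0836600-01 fell by 1.23 ± 0.25 in OX (adjusted p = 0.0325), from 5.46 and 4.15 CPM in WT to 1.89 and 2.19. That call ended with plain library totals (adjusted p = 0.106) and the replicate block (0.075), and without WT 1 (0.13), OX 1 (0.188), OX 2 (0.128), KO 1 (0.0701) or KO 2 (0.0716), within a range of 0.00327 to 0.188. Os07t0288700-02 was higher in OX (4.22 and 6.17 CPM) than in KO (1.34 and 1.10) by 2.09 ± 0.31 (adjusted p = 0.0125), a call that ended without OX 2 (0.067), KO 1 (0.0676) or KO 2 (0.0932) and ran from 1.69e-05 to 0.0932. Os04t0588700-01 was lower in OX (0.914 and 1.37 CPM) than in KO (3.64 and 4.94) by -1.90 ± 0.32 (adjusted p = 0.021), a call that ended without OX 1 (0.118), OX 2 (0.0601), KO 1 (0.0556) or KO 2 (0.108) and ran from 0.000223 to 0.118. None of these 3 transcripts overlapped between the groups compared, which is usual for a called transcript with 2 libraries per group and adds no support.

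**Figure D2:**
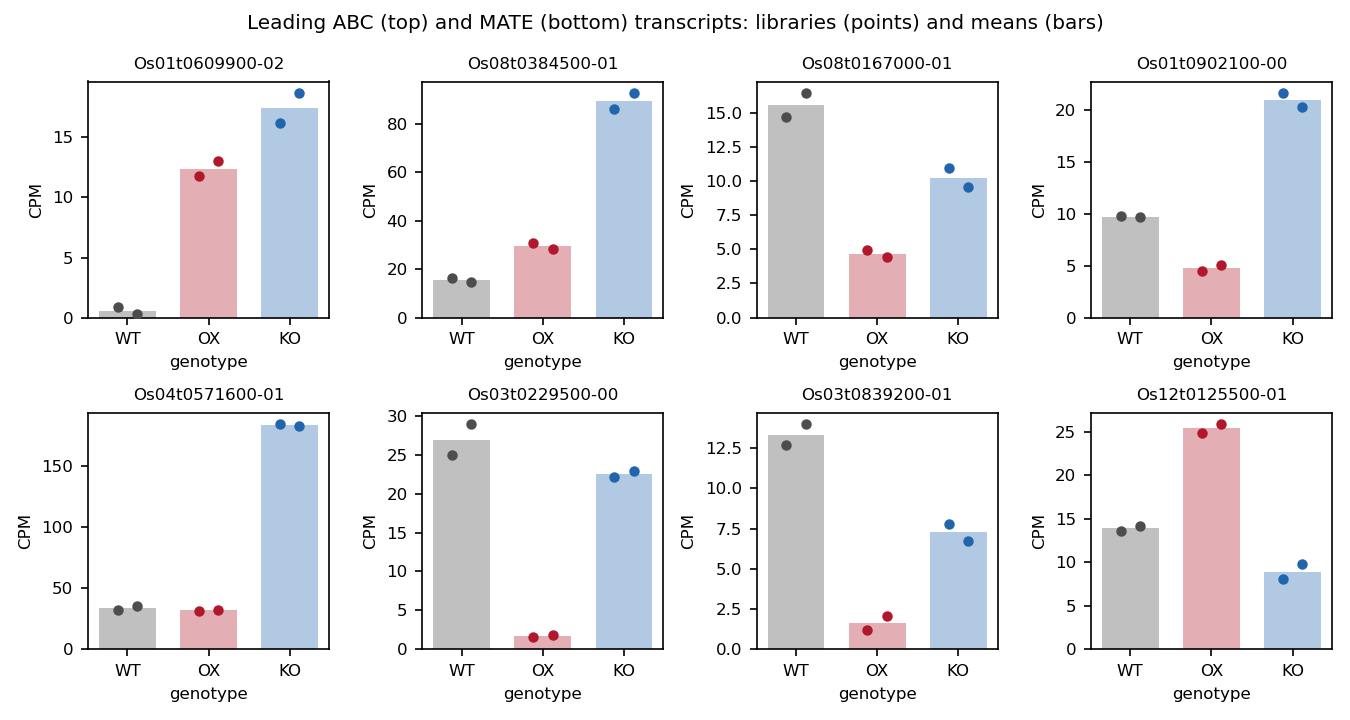
Each panel shows 1 transcript, with CPM on the vertical axis and genotype on the horizontal axis; points are the 2 libraries of a group and bars their mean. In the MATE panels (bottom), Os04t0571600-01 reaches 184 and 183 CPM in KO alone and Os03t0229500-00 falls to 1.51 and 1.81 CPM in OX alone.

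Of the 14 MATE transcripts, 5 were higher and 6 lower in OX than in KO, and 3 were not called. The share called was 78.6%, beside 38.3% of all tested transcripts. For OX against WT it was 64.3% beside 44.1%, and for KO against WT 28.6% beside 36.0%. Against WT, 6 rose and 3 fell in OX, and 3 rose and 1 fell in KO, though with TMM factors the OX split turned to 4 higher and 5 lower. With DESeq2 size factors the OX split was 5 and 4, and with plain library totals it was 8 and 2. The KO split turned to 1 higher and 3 lower with either DESeq2 size factors or TMM factors, and was 3 and 0 with plain library totals. The splits between the mutants were 6 and 5 with DESeq2 size factors and 5 and 5 with TMM factors or plain library totals.

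These MATE counts rested on both libraries of each mutant. Leaving out OX 1 or OX 2 left 0 higher and 2 lower calls by edgeR in OX against WT, and 3 higher calls were made without WT 2. In KO against WT 1 higher and 0 lower calls were made without any one of KO 1, KO 2, OX 1 and OX 2, and the lower call was also lost without WT 1 or WT 2. Between the mutants the calls were 2 higher and 3 lower without OX 1 or OX 2, 2 and 2 without KO 1, and 1 and 3 without KO 2.

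The MATE transcripts that fell in OX included the largest falls of any member. Os03t0229500-00 (chromosome 3, 6854085 to 6856064) had 25.0 and 28.9 CPM in WT, 1.51 and 1.81 CPM in OX, and 22.2 and 23.0 CPM in KO. Both OX libraries were far below the other 4, and the log2 fold change was -4.02 ± 0.16 against WT (adjusted p = 0.000137) and -3.76 ± 0.15 against KO (adjusted p = 0.000163). In KO against WT it was -0.26 ± 0.13 and did not pass (adjusted p = 0.613). The authors' deposited annotation gives it terms for iron ion transport, shared with 9 listed transcripts in all, and for antiporter activity, shared with 44.

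Os03t0839200-01 (chromosome 3, 35266207 to 35269744) had 12.7 and 14.0 CPM in WT, 1.17 and 2.08 CPM in OX, and 7.78 and 6.73 CPM in KO. OX was lowest, with no overlap. It fell by 3.04 ± 0.31 on the log2 scale in OX against WT (adjusted p = 0.00264), and OX was below KO by -2.16 ± 0.30 (adjusted p = 0.01), a call that ended without KO 1 (adjusted p = 0.0586, range 2.94e-08 to 0.0586). Os06t0558300-00, at 1.55 and 0.922 CPM in WT, 0.315 and 0.292 CPM in OX and 1.65 and 1.54 CPM in KO, fell by 2.01 ± 0.39 against WT (adjusted p = 0.0297) and was -2.37 ± 0.39 against KO (adjusted p = 0.0179). Its call against WT ended with plain library totals (0.0601) and the replicate block (0.0514), and without WT 1 (0.116), OX 1 (0.149), OX 2 (0.168), KO 1 (0.0672) or KO 2 (0.0665), within a range of 0.00764 to 0.168. Its call against KO ended without OX 1 (0.112), OX 2 (0.124), KO 1 (0.0864) or KO 2 (0.0771), within a range of 0.00205 to 0.124.

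The 2 listed transcripts of the root marker list summed to 67.6 and 75.2 CPM in WT, 2.33 and 1.96 CPM in OX, and 63.2 and 64.4 CPM in KO. In OX against WT they went opposite ways. The log2 fold change was -5.46 for 1, which was called lower, and 2.34 for the other, which was not called. The 7 listed pollen or anther transcripts summed to 17.1 and 13.8 CPM in WT, 49.9 and 45.3 CPM in OX, and 69.3 and 69.1 CPM in KO. Of these, 3 were called higher in OX and 2 in KO. They went both ways, with log2 fold changes from -2.76 to 2.17 in OX (median 1.55) and -1.60 to 2.47 in KO (median -0.14). The 37 dividing-cell transcripts summed to 1525 and 1636 CPM in WT, 872 and 881 CPM in OX, and 688 and 675 CPM in KO, with 6 rising and 7 falling in OX and 10 and 9 in KO, where the KO balance turned to 5 and 10 with DESeq2 size factors and 4 and 10 with TMM factors. In OX the dividing-cell calls were 5 and 10 with either factor and 8 and 6 with plain library totals. Of 6 secondary wall transcripts, at 42.2 and 44.5 CPM in WT, 122 and 98.2 CPM in OX, and 37.2 and 45.7 CPM in KO, 1 rose in OX. Their log2 fold changes in OX ran from -1.96 to 1.60 (median 1.06). With DESeq2 size factors or TMM factors 1 root and 1 secondary wall transcript were lower in KO, and 2 pollen or anther transcripts were higher in OX and 1 in KO. Of all tested transcripts, 25.0% were called higher and 19.0% lower in OX against WT, and 25.0% and 11.0% in KO. The part of any of these lists in the transporter results was not tested.

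The MATE transcripts that rose in OX were spread over chromosomes 3, 7, 10, 11 and 12. Os10t0206800-01, the most abundant of them (chromosome 10, 7574038 to 7579887), had 25.7 and 18.3 CPM in WT, 45.9 and 42.4 CPM in OX, and 31.1 and 31.2 CPM in KO. OX was above all other libraries, though its difference from KO, 0.50 ± 0.17 on the log2 scale, was not called (adjusted p = 0.188). The rise against WT was 1.00 ± 0.17 (adjusted p = 0.0172). The call ended with TMM factors (adjusted p = 0.0606) and without OX 1 (0.0966) or OX 2 (0.0708), within a range of 1.53e-05 to 0.0966. Os03t0626700-01, at 5.42 and 6.91 CPM in WT, 15.2 and 15.4 CPM in OX and 9.20 and 7.20 CPM in KO, rose by 1.31 ± 0.19 (adjusted p = 0.0106), a call that ended without OX 1 (0.0608) or OX 2 (0.0657) and ran from 2.54e-06 to 0.0657. Its higher level in OX than in KO, 0.90 ± 0.19 (adjusted p = 0.0445), ended with the replicate block (0.0967) and without OX 1 (0.186), OX 2 (0.198), KO 1 (0.0872) or KO 2 (0.221), within a range of 0.00298 to 0.221.

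Os07t0516600-01 rose in both mutants, from 0.426 and 0.712 CPM in WT to 2.87 and 2.60 CPM in OX and 2.19 and 1.97 CPM in KO. The mutants did not overlap WT. The log2 rises were 2.26 ± 0.33 in OX (adjusted p = 0.0107) and 1.87 ± 0.33 in KO (adjusted p = 0.0257). The OX call ended without OX 1 (0.0623) or OX 2 (0.052), within a range of 5.49e-05 to 0.0623. The KO call ended with DESeq2 size factors (0.0718), TMM factors (0.076) and the replicate block (0.0625), and without WT 1 (0.0897), OX 1 (0.0677), OX 2 (0.0673), KO 1 (0.121) or KO 2 (0.0955), within a range of 0.00217 to 0.121.

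The 4 MATE genes on chromosomes 11 and 12 were all higher in OX than in KO, where 13.3% of all tested transcripts were called higher. Os12g0125500 and Os12g0126000 lie 26.4 kb apart on chromosome 12, and Os11g0126100 and Os11g0129200 lie 158 kb apart on chromosome 11. Such family members may share reads, within a chromosome or between the 2, which could not be resolved from the counts. The 4 genes are therefore not taken as separate observations. Os12t0125500-01 (1220955 to 1224975) had 13.6 and 14.2 CPM in WT, 24.9 and 25.9 CPM in OX, and 8.05 and 9.76 CPM in KO. WT lay between the mutants, and OX was above KO by 1.51 ± 0.13 on the log2 scale (adjusted p = 0.00173).

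Against WT, Os12t0125500-01 rose by 0.87 ± 0.13 in OX (adjusted p = 0.011) and fell by 0.64 ± 0.13 in KO (adjusted p = 0.0402). The OX call ended without WT 1 (0.0607), WT 2 (0.051), OX 1 (0.0603) or OX 2 (0.0745), within a range of 2.77e-06 to 0.0745. The KO call ended with plain library totals (0.121) and the replicate block (0.0568), and without WT 1 (0.119), WT 2 (0.147), OX 1 (0.0966), OX 2 (0.099), KO 1 (0.178) or KO 2 (0.0595), within a range of 0.00324 to 0.178.

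Its neighbour Os12t0126000-01 (1251405 to 1255942) had 5.03 and 4.57 CPM in WT, 10.7 and 8.83 CPM in OX, and 4.56 and 3.44 CPM in KO. OX alone stood apart. It was 1.29 ± 0.22 higher in OX than in KO (adjusted p = 0.021) and 1.02 ± 0.22 higher than in WT (adjusted p = 0.0412) on the log2 scale. The call against KO ended without OX 1 (0.129), OX 2 (0.0692), KO 1 (0.0515) or KO 2 (0.107), within a range of 0.000112 to 0.129. The call against WT ended with DESeq2 size factors (0.0777) and TMM factors (0.0883), and without WT 1 (0.133), WT 2 (0.187), OX 1 (0.225), OX 2 (0.106) or KO 1 (0.0501), within a range of 0.00359 to 0.225.

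On chromosome 11, Os11t0126100-01 had 1.82 and 1.26 CPM in WT, 5.36 and 4.68 CPM in OX, and 1.04 and 0.914 CPM in KO. OX was again above all other libraries, by 2.36 ± 0.29 on the log2 scale over KO (adjusted p = 0.0064) and 1.70 ± 0.28 over WT (adjusted p = 0.0164). The call against KO ended without KO 2 (0.0582, range 2.96e-07 to 0.0582), and that against WT without WT 2 (0.0652), OX 1 (0.0988) or OX 2 (0.0695), within a range of 0.000279 to 0.0988. Os11t0129200-00, at 6.93 and 5.49 CPM in OX and 2.95 and 2.85 in KO, was 1.10 ± 0.22 higher in OX (adjusted p = 0.0379). That call ended with the replicate block (0.0644) and without any 1 library, with adjusted p from 0.0579 without WT 2 to 0.213 without OX 1. The other 4 values were 0.0587 without WT 1, 0.0888 without OX 2, 0.167 without KO 1 and 0.187 without KO 2, and the range over all alternatives began at 0.00343.

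In KO, 1 MATE transcript dominated. Os04t0571600-01 (chromosome 4, 28772448 to 28774623) had 31.9 and 35.7 CPM in WT, 31.6 and 32.4 CPM in OX, and 184 and 183 CPM in KO. WT and OX overlapped, and both KO libraries were far above them. The log2 fold change was 2.44 ± 0.07 in KO against WT (adjusted p = 7.33e-05) and -2.52 ± 0.07 in OX against KO (adjusted p = 8.7e-05). In OX against WT it was -0.08 ± 0.07 (adjusted p = 1), which turned to 0.29 with plain library totals (adjusted p = 0.0456).

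Os03t0216700-01 is a MatE family protein by its deposited description. Its gene ID is taken here, from general knowledge and not from the files, to be that of FRDL1, the citrate transporter needed to move iron from root to shoot in rice. It lies on chromosome 3 from 6131846 to 6142781. It had 6.85 and 9.34 CPM in WT, 7.25 and 6.69 CPM in OX, and 15.5 and 15.9 CPM in KO. KO was above the other libraries, while WT and OX overlapped. It rose by 0.96 ± 0.18 on the log2 scale in KO against WT (adjusted p = 0.0321) and was lower in OX than in KO by -1.17 ± 0.18 (adjusted p = 0.0148). The KO call ended with DESeq2 size factors (0.302), TMM factors (0.378) and the replicate block (0.0622), and without WT 1 (0.0718), OX 1 (0.0709), OX 2 (0.0722), KO 1 (0.15) or KO 2 (0.164), within a range of 0.000769 to 0.378. The call against KO ended without OX 1 (0.0841), OX 2 (0.106), KO 1 (0.084) or KO 2 (0.0917), within a range of 1.18e-05 to 0.106.

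A MATE gene and an ABC gene, Os03g0858800 and Os03g0859500, lie 25.7 kb apart on chromosome 3. The MATE transcript Os03t0858800-01, which the authors' deposited annotation links to stomatal movement, had 4.22 and 5.40 CPM in WT, 1.95 and 2.57 CPM in OX, and 5.25 and 5.78 CPM in KO. OX lay below the other groups, though its difference from WT, -1.09 ± 0.25 on the log2 scale, was not called (adjusted p = 0.0545). The difference from KO was -1.28 ± 0.25 (adjusted p = 0.0339). The call ended with DESeq2 size factors (0.0848), TMM factors (0.0924) and plain library totals (0.0515), and without OX 1 (0.178), OX 2 (0.0878), KO 1 (0.118) or KO 2 (0.159), within a range of 0.0013 to 0.178. Its ABC neighbour Os03t0859500-01 had 2.13 and 2.05 CPM in WT, 3.59 and 3.24 CPM in OX, and 4.03 and 4.57 CPM in KO. It rose by 1.04 ± 0.21 in KO against WT (adjusted p = 0.0427), a call that ended with DESeq2 size factors (0.338), TMM factors (0.483), the replicate block (0.0998) and without any 1 library, within a range of 0.00971 to 0.483. The adjusted p was 0.146 on leaving out WT 1, 0.161 for WT 2, 0.0977 for OX 1, 0.0968 for OX 2, 0.129 for KO 1 and 0.21 for KO 2.

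**Figure D3:**
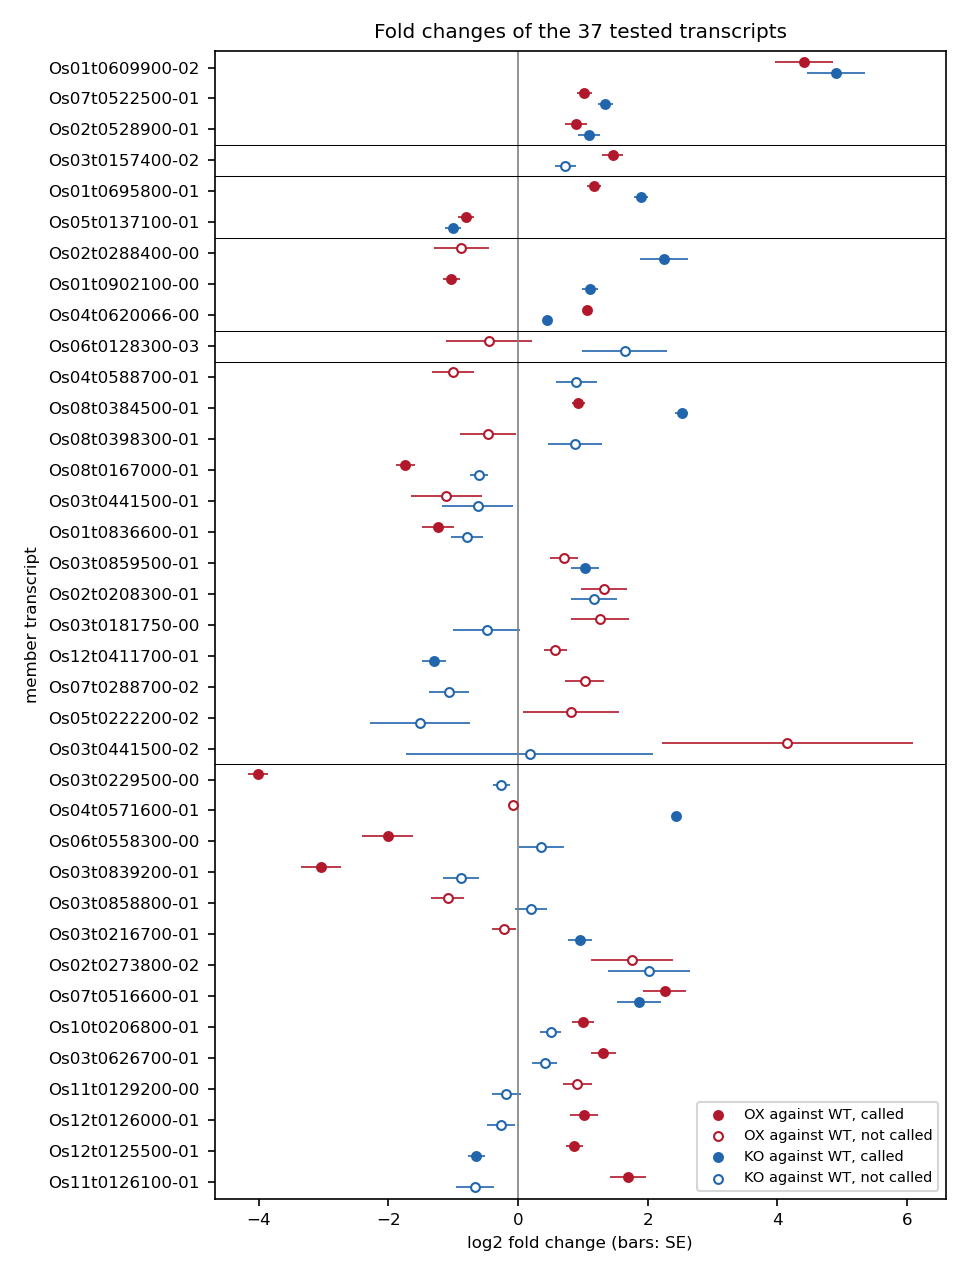
Each row is 1 of the 37 tested transcripts; points give the log2 fold change of OX (red) and KO (blue) against WT, bars its SE, filled points are called and open points are not. The PDR-type rows at the top lie right of 0 in both mutants, while the MATE rows at the bottom spread to both sides in OX.

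In 3 member genes the split between transcripts of the same gene differed between libraries of a group. Os03g0441500 has 2 listed transcripts, and its total was 63.2 and 63.1 CPM in WT, 42.7 and 44.7 CPM in OX, and 40.5 and 42.3 CPM in KO. Transcript Os03t0441500-02 held 68.8% of the gene's counts in OX 1 (933 reads) and 0.914% in OX 2 (14 reads). In the WT and KO libraries it held 0.664% to 3.51%. EdgeR called neither of the gene's transcripts, with a log2 fold change for Os03t0441500-02 of 4.15 ± 1.94 in OX against WT (adjusted p = 0.451). In the authors' deposited table the same transcript has a fold change of 17.9 with an adjusted p of 0.0052, a value that rests on OX 1, and Os03t0441500-01 has -2.16 with an adjusted p of 0.0217. The gene total in OX was below WT in both libraries, so the library difference lay in the split and not in the sum.

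Os12g0411700 also has 2 listed transcripts. Os12t0411700-02, described as of the white-brown complex type, had 36 reads in OX 1, 6 in OX 2 and 5 to 7 in the other libraries. It was removed by the filter on low counts. Os06t0128300-03, the mitochondrial half-transporter, was chosen for mention after its values were seen. It had 23 and 40 reads in WT, 29 and 33 reads in OX, and 48 and 169 reads in KO. Its sister transcript Os06t0128300-02, described as STA1 and not a member, had 70 and 49 reads in WT, 5 and 14 reads in OX, and 69 and 13 reads in KO. EdgeR called neither in any comparison, while the authors' deposited table has Os06t0128300-03 higher in KO, 3.13-fold against WT (adjusted p = 0.0437) and 4.26-fold against OX (adjusted p = 0.00319). The summed level of both was 3.60 and 3.73 CPM in WT, 1.07 and 1.37 CPM in OX, and 4.49 and 6.65 CPM in KO.

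**Figure D4:**
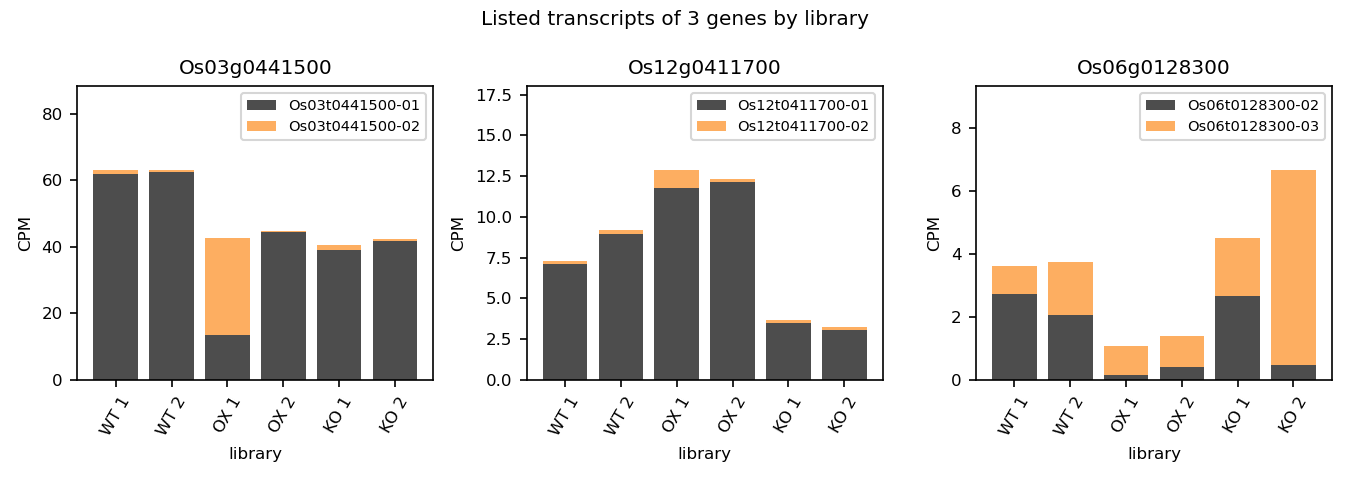
Stacked bars give the CPM of the listed transcripts of 3 genes in each library. The bar of Os03g0441500 in OX 1 is mostly Os03t0441500-02 (68.8% of the gene's counts), while the total height is 42.7 CPM against 44.7 in OX 2.

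Libraries of the same genotype were close for most members. The median ratio of the higher to the lower library was 1.27 in WT, 1.13 in OX and 1.14 in KO. The libraries were more than 2-fold apart for 3 members in WT, 5 in OX and 3 in KO, and the highest ratio, 71.8, was that of Os03t0441500-02 in OX. Of the 37 tested members, edgeR called 8 in no comparison, and the authors' deposited table calls 6 of these 8 in at least 1. The 8 were 6 ABC transcripts with no class given, the mitochondrial half-transporter and 1 MATE transcript, Os02t0273800-02, again chosen for mention after its values were seen. Its description names a MatE domain, but the authors' deposited annotation gives it ribonuclease P terms, so its place among MATE transporters is uncertain. The authors' deposited table has it 3.39-fold higher in OX than in WT (adjusted p = 0.00392) and 4.04-fold higher in KO than in WT (adjusted p = 0.000102).

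The authors' own test gave similar counts for the members. Both tests used the same 6 libraries, and every listed transcript had passed the authors' filter, so the likeness is not independent support. At an adjusted p below 0.05 and at least 2-fold, the authors' deposited table has 12 members higher and 8 lower in OX against WT, 11 and 3 in KO against WT, and 9 and 12 in OX against KO. The background at that rule was 48.9%, 38.2% and 41.8% of the 7194 listed transcripts. Of the members called by either source, 16, 11 and 17 were called by both. The authors' table alone called 4, 3 and 4, and edgeR alone called 4, 4 and 3.

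Other gene groups linked to transport were counted beside the members, and whether they share substrates with them was not tested. Of all tested transcripts, 25.0% were called higher and 19.0% lower in OX against WT, and 25.0% and 11.0% in KO. Of 14 glutathione S-transferase transcripts, whose enzymes make the conjugates that ABCC proteins carry, 5 rose and 3 fell in OX, and 3 rose and 0 fell in KO by edgeR, a KO split that turned to 2 higher and 6 lower with DESeq2 size factors or TMM factors. The OX split was 7 and 2 with plain library totals. At an unadjusted p below 0.05, 5 were lower in KO. The transcript Os04t0435500-01, which had the list's highest KO value, rose by 1.08 ± 0.08 in OX (adjusted p = 0.000907) and 2.52 ± 0.08 in KO (adjusted p = 9.08e-05) on the log2 scale. It was named outside the rule used for members, and the list's median in KO was -0.20. Of 4 PIN and AUX1 auxin carrier transcripts 1 rose in OX and 1 fell in KO, and both calls were of Os09t0554300-01 (1.02 ± 0.09, adjusted p = 0.00183, and -0.71 ± 0.09, adjusted p = 0.00845). The OX split of these carriers was 1 and 1 with DESeq2 size factors or TMM factors and 2 and 0 with plain library totals, where the KO split was 1 and 1.

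Of 3 cutin, wax and suberin transcripts, 1 fell in OX and 2 fell in KO, where plain library totals left 1. Of 7 tested vacuolar proton pump transcripts, which energise MATE antiport at the vacuole, 1 rose and 1 fell in OX and none was called in KO by edgeR, where 1 had an unadjusted p below 0.05. Of 16 major facilitator superfamily transcripts, another family of secondary transporters, 5 rose and 5 fell in OX and 6 rose in KO, where DESeq2 size factors or TMM factors gave 3 higher and 2 lower. With plain library totals the OX split of that family was 8 higher and 2 lower. Of 16 NRT1/PTR transcripts, which encode nitrate, peptide and hormone transporters, 1 rose and 5 fell in OX and 5 fell in KO. With DESeq2 size factors or TMM factors 9 fell in KO and 7 fell in OX, and with plain library totals 2 rose and 4 fell in OX. The median log2 fold changes of the NRT1/PTR list were -0.95 in OX and -0.82 in KO, beside 0.28 and 0.43 over all tested transcripts. Called in either direction were 37.5% of the NRT1/PTR list in OX and 31.25% in KO, beside 44.1% and 36.0% of all tested transcripts. For the major facilitator list the shares were 62.5% and 37.5%, and for the glutathione S-transferases 57.1% and 21.4%.

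In the authors' deposited annotation 35 of the 38 members carry at least 1 term, and 30 carry transmembrane transport. Antiporter activity is given to 12 of the 14 MATE members, and ATPase-coupled transmembrane transporter activity to 17 of the 24 ABC members. The member genes lie on 11 of the 12 chromosomes, with 9 of the 36 on chromosome 3.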

How the data were processed

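The 6 leaf libraries were made with a TruSeq stranded kit, per the labels' protocols, and the submitters' processing notes name the rice build IRGSP-1.0. Not given in the sources used here are the aligner, the counter, the use of strand and the authors' test. The deposited values are estimated counts per transcript, rounded up to whole numbers. The authors' deposited FPKM is scaled to transcript length and depth. The authors' deposited log2 values hold CPM plus 1 on effective library totals, which were recovered from them and used for CPM here. The authors deposited signed linear fold changes with unadjusted and adjusted p-values. The deposited table holds only the transcripts they selected, so every call is made among selected transcripts.

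The test was the robust quasi-likelihood test of edgeR 4.0.16 under R 4.3.3. All 6 libraries entered 1 model of genotype alone, with the effective totals as library sizes. After filterByExpr 7034 transcripts remained and 160 were out. Benjamini-Hochberg adjustment covered the 27384 transcripts the authors tested, those outside the table counting as having larger p, and an adjusted p below 0.05 is a call. The SE is the log2 fold change over the square root of F. Sampling noise was exceeded within each group, with 16.9 in WT, 19.3 in OX and 13.8 in KO as chi-square per degree of freedom. Each library was treated as 1 replicate, though such a spread does not show that libraries came from separate plants. With 2 against 2 libraries an exact test of 1 transcript cannot pass the threshold, so only the fit over all transcripts was used. The procedure was also run on simulated data in which most transcripts were unchanged. The listed transcripts were selected for change, so that run gives no error rate for the calls here.

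Alternatives were DESeq2 1.42.0, DESeq2 size factors or TMM on the listed transcripts, plain totals, no filter, adjustment over the listed transcripts only, a replicate block, leaving out each library and a wider member rule. The other scalings of the related gene lists were added after seeing the data. The members and lists were chosen with earlier results of these data known. Named were, per comparison and direction, the 12 called members of largest change, the 6 of highest FPKM, genes with several member transcripts, neighbours within 50 kb and rice transporters of known role, 32 of 38 in all. No member gene ID matched the reference table, so names come from the authors' descriptions, except OsABCG18 and FRDL1, which were assigned to their gene IDs from general knowledge. No sequence was used here.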

Additional observations from a re-analysis of the deposited data

How the results depend on the processing

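Of the 55 calls among members, 23 were kept under every alternative: 10 of OX against WT, 6 of KO against WT and 7 of OX against KO. Another setting ended 18 calls and leaving out a library ended 32. Counts that moved by more than 1.5 times were as follows. In OX against WT, plain library totals left 4 lower calls. In KO against WT, higher calls numbered 6 with DESeq2 size factors and 5 with TMM factors, and lower calls 8 with either and 7 when adjusted over the listed transcripts alone. Leaving out 1 library gave 6 to 12 higher and 4 to 6 lower calls for OX against WT, 6 to 9 and 1 to 3 for KO against WT, and 3 to 9 and 6 to 12 for OX against KO. The direction turned for Os04t0571600-01 in OX against WT with plain library totals (0.29), and for Os04t0620066-00 in KO against WT with DESeq2 size factors (-0.051) and TMM factors (-0.12). The cause was not tested. Replicate numbers did not pair the libraries, since deviations from the group means correlated by 0.08 (WT and OX), 0.02 (WT and KO) and 0.02 (OX and KO). With the replicate block, 14 members were higher and 5 lower for OX against WT, 10 and 2 for KO against WT, and 6 and 12 for OX against KO. A member rule that adds 2 transcripts gave 14 and 7, 14 and 3, and 8 and 14. Members with few reads, and the selection of the table, limit every count.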
